A study of Mus musculus with 15 samples.

Results

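Of 53379 mouse genes measured in T-ALL cells after shutdown of the MYC transgene, 297 had a transient peak, higher at 2, 4 or 8 h than at both 0 and 24 h. A peak was defined on mean CPM (the counts of a gene scaled to the same total in every library, averaged over the 3 libraries of a time). The highest of a gene's means at 2, 4 and 8 h had to be at least 5 CPM and at least 1.5 times both the 0 h and the 24 h mean. In all, 10152 genes reached 5 CPM at 2, 4 or 8 h, and 2.93% of those met the rule. Because the levels at all 5 times chose these genes, their rise and fall are a description, with no test of a peak against 0 h or 24 h. Calls from edgeR between times that the rule did not set against each other are given with their counts, and the rule shapes these counts too.

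The cells were mouse T-ALL (T cell acute lymphoblastic leukemia) cells from tumors of EμSRα-tTA/tet-O-MYC mice on the FVB/N background. All libraries carry this transgene pair, in which the lymphoid EμSRα promoter drives the tetracycline transactivator tTA, and tTA drives a human MYC cDNA from the tet-O promoter until doxycycline is added. PolyA RNA was sequenced from 3 mock-treated libraries with MYC on (0 h) and from 3 libraries each at 2, 4, 8 and 24 h of doxycycline with MYC off, 15 libraries in all. Whether the libraries of a time are separate cultures is not stated in the sources used here, so every p-value rests on the spread between libraries alone, which may be technical. No mock libraries were matched to the later times, so MYC loss, doxycycline itself and time in culture cannot be told apart. The MYC transgene stood at 1844 to 1966 CPM at 0 h and at 22.6 to 26.0 CPM by 2 h.

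MYC is a transcription factor that raises the output of genes for ribosomes, nucleotides, glycolysis and lipid synthesis, and tumors driven by it often regress when it is switched off. Sterol synthesis is held in balance by a feedback loop in which SREBP transcription factors switch on the whole enzyme chain when membrane sterol falls. Ribosomal protein mRNAs are among the most abundant in a cell, and over evolutionary time many have been copied back into the genome as intron-less processed pseudogenes, whose sequence stays close to that of the parent gene.

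All 10 genes of a T cell marker list reached 1 CPM, with a summed level of 4112 to 4176 CPM at 0 and 2 h, 5091 to 5228 CPM at 4 h, 6685 to 7144 CPM at 8 h, then 10572 to 11869 CPM at 24 h. None of the 7 erythroid markers reached 1 CPM in any library. Of the 8 B cell markers only Ighm did, and Cd79b, Ms4a1, Pax5 and Blk were at 0 in every library. The B cell list summed to 70.9 to 77.5 CPM at 0 h, 138 to 146 CPM at 8 h, then 89.7 to 104 CPM at 24 h. The NK cell list, of which Gzma and Prf1 reached 1 CPM and Ncr1 was at 0, summed to 4.87 to 6.01 CPM at 0 h, 26.4 to 34.9 CPM at 8 h, then 68.1 to 113 CPM at 24 h. The macrophage and neutrophil list, with 3 of 10 genes reaching 1 CPM and Lyz2 and S100a8 at 0, summed to 9.80 to 11.8 CPM at 0 h and 27.9 to 37.2 CPM at 24 h. The stromal and endothelial list, with 2 of 8 reaching 1 CPM, summed to 52.5 to 56.6 CPM at 0 h and 133 to 165 CPM at 24 h. In bulk RNA, fewer cells of a type and less RNA per cell cannot be told apart. A library that stands apart is the third at 24 h, in which ribosomal protein genes took 3.55% of the counts against 5.55% and 5.90% in the others of that time. The part of these marker levels in the results below was not tested.

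The peak fell at 2 h in 26 genes, at 4 h in 86 and at 8 h in 185. The median ratio of the peak mean to the higher of the 0 h and 24 h means was 1.66, with the highest at 3.77, and it reached 2 in 33 genes and 3 in 4. Peak means ran from 5.01 to 6165 CPM with a median of 25.1 CPM. They were at least 100 CPM in 62 genes and under 10 CPM in 80. In 281 of the 297 genes all 3 libraries of the peak time lay above all 6 libraries of 0 and 24 h. The rule chose the genes on the means of these same libraries, which favours such a gap, so nothing is read from this count. The rule was met at a single one of the 3 inner times in 197 genes, at 2 of them in 92 and at all 3 in 8. Without the third 24 h library 252 of the 297 met the rule, and 197 met it whichever single library was left out.

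The groups differed in shape. In the median gene with a peak at 2 h, the 4 h mean kept 32.4% of the rise over 0 h and the 8 h mean was below the 0 h level, as it was in 15 of the 26. In the median gene with a peak at 4 h, 36.5% of the rise was present at 2 h and 70.3% was left at 8 h. At 24 h, 78 of the 86 were below their 0 h mean, among them 19 of the 21 protein-coding genes outside the ribosome. The median ratio of the 24 h to the 0 h mean was 0.712 in the 86. It was 1.18 over all genes that reached 5 CPM at an inner time, and the rule alone can move the members from this value. In the median gene with a peak at 8 h, 14.5% of the rise was present at 2 h and 55.6% at 4 h. These genes ended on either side of the start, with 87 of 185 below their 0 h mean CPM at 24 h, whereas on the TMM scale of the edgeR fit 127 of the 185 were below it.

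**Figure D1:**
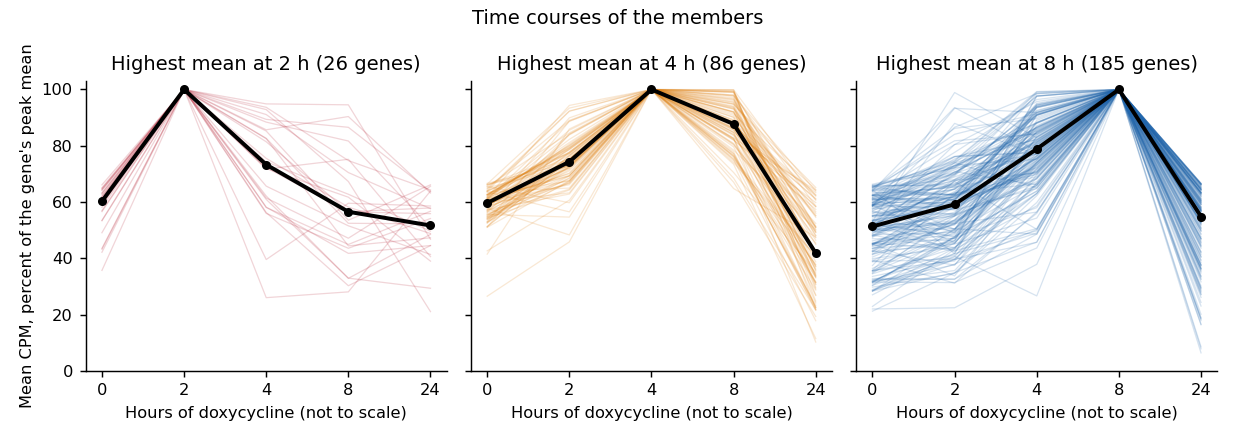
Mean CPM of each member at 0, 2, 4, 8 and 24 h of doxycycline, as a percent of its own peak mean, in 3 panels by the time of the peak. Thin lines are single genes and the thick black line with points is the median. The median of the 86 genes of the 4 h panel still stood at 87.7% of the peak at 8 h, and that of the 26 genes of the 2 h panel at 56.5%.

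By annotation and sequence, the members fell into 179 protein-coding genes outside the ribosome, 72 copies of ribosomal protein genes, 28 other non-coding genes, 13 other pseudogenes and 5 ribosomal protein genes. A copy was any other gene whose longest transcript matched a ribosomal protein gene at 90% identity or more over at least 80% of its length. The 179 other protein-coding genes peaked at 2 h in 19 cases, at 4 h in 21 and at 8 h in 139. The 72 copies peaked at 4 h in 56 cases and at 8 h in 16, and none peaked at 2 h. Annotated processed or unprocessed pseudogenes made up 77 of the 297 genes (25.9%), against 2.31% of all genes that reached 5 CPM at an inner time.

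The 2 h peak was led by enzymes of sterol and fatty acid synthesis and of glycolysis. A list of 32 sterol and fatty acid synthesis genes at the level held 6 members (18.8%, against 2.93% of all genes at the level). All 6 were among the 26 genes with a 2 h peak, and no gene of the list had a later one. The promoters of 4 of them are shown because these genes share the early peak and because RefSeq promoter windows could be matched to them. Each line gives the 250 bases before the annotated RefSeq start on GRCm38.p6, read 5′ to 3′ on the strand of the gene. The capitals mark the CCAAT box, searched as CCAAT on both strands (ATTGG on the other), which is known as a binding site of the factor NF-Y.
Hmgcs1, chr13:119690101-119690350, plus strand: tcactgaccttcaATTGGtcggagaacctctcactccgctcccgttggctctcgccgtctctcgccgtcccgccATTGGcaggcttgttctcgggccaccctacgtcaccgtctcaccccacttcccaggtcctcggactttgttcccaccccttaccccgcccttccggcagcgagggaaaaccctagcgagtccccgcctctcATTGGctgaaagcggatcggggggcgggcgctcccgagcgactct
Cyp51, chr5:4104698-4104947, minus strand: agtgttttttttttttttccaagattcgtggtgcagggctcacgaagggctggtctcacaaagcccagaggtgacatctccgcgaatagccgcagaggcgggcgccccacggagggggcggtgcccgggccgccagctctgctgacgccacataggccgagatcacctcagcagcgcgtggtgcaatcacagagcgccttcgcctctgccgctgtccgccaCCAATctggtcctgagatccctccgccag
Lss, chr10:76531355-76531604, plus strand: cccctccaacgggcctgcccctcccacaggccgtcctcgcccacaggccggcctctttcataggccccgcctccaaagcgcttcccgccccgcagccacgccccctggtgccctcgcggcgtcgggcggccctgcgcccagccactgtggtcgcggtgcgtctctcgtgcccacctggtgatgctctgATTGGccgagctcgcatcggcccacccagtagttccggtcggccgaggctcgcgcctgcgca
Nsdhl, chrX:72918271-72918520, plus strand: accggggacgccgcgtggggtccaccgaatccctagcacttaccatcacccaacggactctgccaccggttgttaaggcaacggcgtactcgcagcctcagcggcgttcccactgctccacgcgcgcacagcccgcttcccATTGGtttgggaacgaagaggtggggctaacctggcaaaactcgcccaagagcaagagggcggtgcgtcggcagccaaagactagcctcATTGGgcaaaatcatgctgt

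All 4 windows held the box, 3 times in Hmgcs1, 2 times in Nsdhl and once each in Cyp51 and Lss. It lay 45 bases before the start in Hmgcs1 at its nearest, 29 in Cyp51, 62 in Lss and 20 in Nsdhl. In windows that also take in the 50 bases after the start, 37.4% of the 32851 RefSeq promoters held it, and so did 20 of the 31 promoters of the sterol list. A match of letters is a description and no evidence that a factor bound there.

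Scd2, which encodes a stearoyl-CoA desaturase that makes monounsaturated fatty acids, had the highest level among these genes. It stood at 432, 400 and 392 CPM at 0 h and at 803, 838 and 852 CPM at 2 h. It was then at 599, 524 and 514 CPM at 4 h, 477, 421 and 387 CPM at 8 h and 296, 308 and 428 CPM at 24 h. The 2 h libraries lay above all the others, 2.04 times the 0 h mean, and the 8 h and 24 h libraries overlapped with those of 0 h.

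Hmgcs1, the cytosolic HMG-CoA synthase at the entry to the mevalonate pathway, went from 68.1, 74.6 and 67.8 CPM at 0 h to 170, 155 and 163 CPM at 2 h, the largest ratio to 0 h among the 6 at 2.31 times. It still stood at 130 to 135 CPM at 4 h, at 85.9 to 96.5 CPM at 8 h and at 86.3 to 99.8 CPM at 24 h, so that no later library came down to the 0 h range. Cyp51, the lanosterol demethylase, went from 68.6 to 73.8 CPM at 0 h to 119 to 125 CPM at 2 h. It had returned to 65.2 to 71.8 CPM by 8 h, a range that overlaps with 0 h.

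Lss, the lanosterol synthase that closes the sterol ring system, was at 22.5 to 23.9 CPM at 0 h and at 36.3 to 38.2 CPM at 2 h. By 8 h it was at 14.2 to 17.4 CPM, below every 0 h library. Nsdhl, which acts in C4 demethylation of sterols, held its peak longer, with 74.6 to 82.0 CPM at 2 h and 67.1 to 77.2 CPM at 4 h over 47.3 to 50.3 CPM at 0 h. Fdps, the farnesyl diphosphate synthase, was low at 5.28 to 5.73 CPM at 0 h and 7.63 to 11.1 CPM at 2 h, and it no longer met the rule when the first library of 2 h or the first or second of 24 h was left out. Nsdhl lost the rule without the third 24 h library, and the other 4 kept it whichever library was left out.

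Of all 32 genes of the sterol list at the level, these 6 included, 17 had their highest mean of all 5 times at 2 h (53.1%), against 8.69% of all genes at the level, and the median 2 h mean was 1.38 times that of 0 h, against 1.02 over all genes at the level. Msmo1, a sterol C4 oxidase, came nearest with means of 25.9 CPM at 0 h, 60.5 CPM at 2 h and 41.5 CPM at 24 h, a ratio of 1.46. Srebf2, which encodes the SREBP that controls sterol genes, had means of 268, 366 and 233 CPM at 0, 2 and 4 h. At 24 h against 0 h the edgeR test (quasi-likelihood, adjusted p under 0.01 over all genes) called 6 of the 32 higher and 13 lower, where 30.7% of the 14485 genes tested were called higher and 28.1% lower.

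Glycolysis and its neighbours supplied the most abundant genes with a 2 h peak. Aldoa, the aldolase that splits fructose bisphosphate, was at 1571, 1481 and 1479 CPM at 0 h and at 2442, 2385 and 2480 CPM at 2 h. Its 8 h libraries, at 760, 806 and 837 CPM, were lower than those of every other time, and at 24 h it stood at 1032 to 1300 CPM. Gpi1, glucose-6-phosphate isomerase, followed the same course, with 820 to 842 CPM at 0 h, 1296 to 1344 CPM at 2 h, 583 to 600 CPM at 8 h, then 719 to 783 CPM at 24 h.

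Pdk1, the kinase that blocks entry of pyruvate into the mitochondrial cycle, turned quickly. It went from 144, 146 and 154 CPM at 0 h to 225, 234 and 243 CPM at 2 h but was at 87.1, 91.9 and 98.6 CPM only 2 h later. It came back to 131 to 149 CPM at 8 h and 119 to 153 CPM at 24 h, ranges that overlap with 0 h. Gbe1, the glycogen branching enzyme, went from 15.4 to 16.4 CPM at 0 h to 26.0 to 27.8 CPM at 2 h, and lost the rule without the third 24 h library.

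The glycolysis and hypoxia list held 29 genes at the level, and 12 of them had their highest mean at 2 h (41.4%) and 14 at 24 h (48.3%). Among all genes at the level these shares were 8.69% and 44.9%, so the 24 h share of the list was near that of all genes. Pfkl, a phosphofructokinase of the liver type, missed the rule by the smallest margin in this list, with means of 63.0 CPM at 0 h, 94.4 CPM at 2 h, 36.7 CPM at 4 h and 60.1 CPM at 24 h and a ratio of 1.498. Tpi1, triosephosphate isomerase, followed at 1.48. Ldha, lactate dehydrogenase, had means of 2906 CPM at 0 h and 3493 CPM at 2 h and was at 1153 CPM at 8 h and 1241 CPM at 24 h. At 24 h against 0 h, 12 of the 29 genes were called higher and 13 lower, against 30.7% and 28.1% of all genes tested.

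Several genes with a 2 h peak lie over one another in the genome, so that their counts cannot be told apart where the exons overlap unless strand was used in counting. Gm48342 shares 557 exonic bases with Hmgcs1 on the other strand and went from 21.1 to 22.5 CPM to 47.2 to 52.1 CPM. Gm26762 shares 741 exonic bases with Gpi1, and Fam57b shares 25 with Aldoa. Gm7336 is a pseudogene with 99.8% identity to Gapdh. Outside these pathways, the autophagy kinase Ulk2 went from 79.1 to 88.9 CPM at 0 h to 126 to 133 CPM at 2 h. Tex14, a gene known for intercellular bridges of germ cells, went from 17.4 to 19.9 CPM to 32.4 to 34.4 CPM and ended at 4.84 to 8.06 CPM at 24 h.

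**Figure D2:**
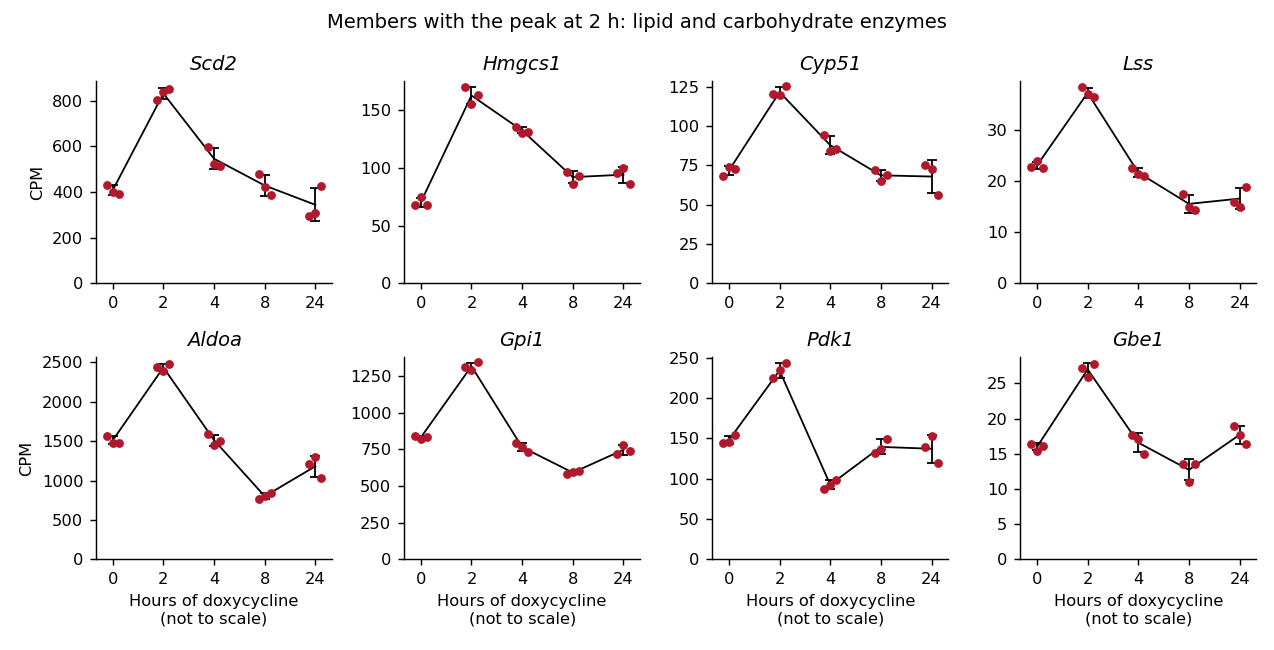
CPM of 8 members with the peak at 2 h against hours of doxycycline, with red points for the 3 libraries of each time and a black line with bars for the mean and SD. In all 8 panels the 2 h points lie above every other point, and Aldoa, Gpi1 and Lss pass below their 0 h level by 8 h, whereas Hmgcs1 stays above it.

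From 4 h to 8 h, edgeR's quasi-likelihood fit at adjusted p under 0.01 over all genes called 14 of these 26 genes lower and 1 higher, where 6.97% of the 14485 genes tested were called lower and 5.73% higher. The rule placed both times below 2 h and 24 h lower than the peak, so a decline lies on the path that it selects and nothing is read from this count. Without the first or the second 4 h library the count of lower genes was 9. The log2 fold change was -0.59 (SE 0.07) in Hmgcs1, -0.98 (SE 0.09) in Aldoa and -0.54 (SE 0.09) in Lss. Pdk1 was the gene called higher, at 0.53 (SE 0.10).

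The 4 h peak consisted mainly of copies of ribosomal protein genes. Among 106 pseudogenes that copy a ribosomal protein gene and reached 5 CPM at an inner time, 64 were members (60.4%), against 13 of the other 143 pseudogenes (9.09%). The 13 include Rpl37rt, which bears the symbol of a ribosomal protein gene but did not meet the limits for a copy. Of the 106, 105 had a higher mean at 4 h than at 0 h, as had 105 of the other 143 and 5698 of the 10152 genes at the level. All 106 had a lower mean at 24 h than at 4 h, as had 77 of the 143 and 3589 of the 10152. The rule used these contrasts and 64 of the 106 met it, so nothing is read from these counts. The 72 member copies, of which 8 are annotated as protein-coding, matched 49 parent genes at 95.0% to 100% identity with a median of 99.1%. Reads of a copy and its parent can therefore be exchanged in alignment and counting, and the level of a copy is uncertain on its own.

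The pair Rps27 and Rps27rt shows how close such sequences can be. By symbol, both are counted among the 5 ribosomal protein genes and not among the 72 copies. Rps27, a protein of the small ribosomal subunit with a peak at 8 h, is spliced from 4 coding exons on chromosome 3, and Rps27rt, a single-exon gene on chromosome 9 with a peak at 4 h, is annotated as protein-coding. Their coding sequences in GENCODE M21 on GRCm38, 252 bases without the stop codon, differ at 0 positions, so that 1 line stands for both. The capitals mark the bases beside the 3 joins of Rps27 exons, which in Rps27rt are no joins.
Rps27, chr3:90212728-90213615, minus strand, and Rps27rt, chr9:114982456-114982707, minus strand: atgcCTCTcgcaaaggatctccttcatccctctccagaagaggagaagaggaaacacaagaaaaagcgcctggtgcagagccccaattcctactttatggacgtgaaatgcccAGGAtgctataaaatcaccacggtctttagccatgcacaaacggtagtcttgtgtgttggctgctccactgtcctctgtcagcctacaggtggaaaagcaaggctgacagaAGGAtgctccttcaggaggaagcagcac

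Rps27 was at 806, 861 and 836 CPM at 0 h and at 788, 892 and 907 CPM at 2 h. It stood at 1170, 1160 and 1285 CPM at 4 h, 1160, 1371 and 1437 CPM at 8 h and 765, 811 and 436 CPM at 24 h. The 4 h and 8 h libraries lay above all the others. Rps27rt was far lower, at 20.7, 20.6 and 19.7 CPM at 0 h, 26.0, 44.9 and 36.2 CPM at 4 h and 28.1, 25.9 and 14.4 CPM at 24 h, and its first 4 h library fell within the range of 24 h.

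The copies with the highest peaks were Gm10260, a copy of Rps18 with 270 to 335 CPM at 8 h, and Rpl9-ps6, with 145, 219 and 193 CPM at 4 h over 106, 111 and 91.8 CPM at 0 h. Gm10260 shares 541 exonic bases with the non-coding member Gm26619 on the other strand. The pseudogene Rps16-ps2, identical to the matching part of Rps16, went from 81.8, 87.4 and 78.7 CPM at 0 h to 104, 169 and 142 CPM at 4 h, then 81.5, 67.9 and 42.8 CPM at 24 h. Its parent Rps16 had means of 1516, 1831, 1786 and 790 CPM at 0, 4, 8 and 24 h, a ratio of 1.21 that leaves it outside the rule. Gm13215, a copy of Rps27a, had the largest ratio among the copies at 3.46, with 9.11 to 9.85 CPM at 0 h and 22.2, 42.3 and 34.0 CPM at 8 h.

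The copies varied widely between libraries of a time. Together the 72 copies took 0.164% to 0.181% of the counts at 0 h, then 0.227%, 0.355% and 0.293% in the 3 libraries of 4 h and 0.215%, 0.314% and 0.298% in those of 8 h, and 0.158%, 0.135% and 0.0846% at 24 h. The second 4 h library was the highest and the first the lowest of that time. Without the second 4 h library, 48 of the 72 copies still met the rule, and the number of members with a 4 h peak was 28 instead of 86, while 176 of the 179 other protein-coding members were kept. Without the first 8 h library the number of members with a 4 h peak was 50, and all 72 copies met the rule. Of the 72 copies 40 met the rule whichever single library was left out, as did 134 of the 179 other protein-coding genes and 13 of the 28 other non-coding genes.

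The 5 ribosomal protein genes themselves were Rps24, Rps27 and Rpl39 with a peak at 8 h and Rps27rt and Rpl36al with a peak at 4 h. Rps24, at 5250, 6272 and 6972 CPM at 8 h, had the highest peak of all members and also changed with the library, since it lost the rule without the second or the third 8 h library or the third 24 h library. Rps27 was the single one of the 5 that kept the rule whichever library was left out, but it lost the rule on totals scaled by TMM or RLE factors. Of 83 ribosomal protein genes at the level, 36 had their highest mean at 4 h (43.4%) and 42 at 8 h (50.6%), against 10.2% and 13.2% of all genes at the level. The 83 genes had median levels of 1.02, 1.19, 1.18 and 0.474 times 0 h at 2, 4, 8 and 24 h. Their share of the counts was 10.2% to 10.7% at 0 h, 11.95% to 13.5% at 4 h, 11.6% to 13.1% at 8 h and 3.55% to 5.90% at 24 h.

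**Figure D3:**
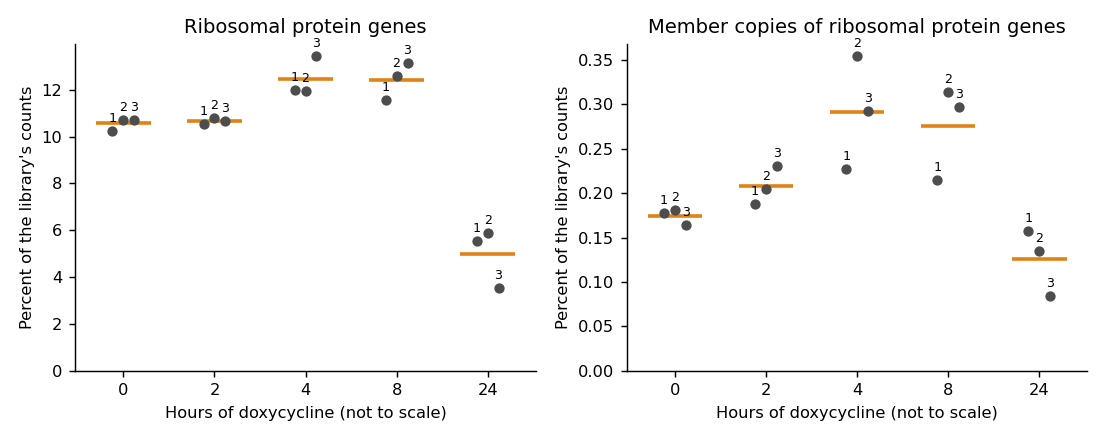
Percent of each library's counts in 83 ribosomal protein genes (left) and in the 72 member copies (right) against hours of doxycycline, with a point per library numbered by replicate and a line for the mean. Ribosomal protein genes run from 10.2% to 13.5% up to 8 h and from 3.55% to 5.90% at 24 h, and the copies spread widely at 4 h, from 0.227% to 0.355%.

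Few other protein-coding genes peaked at 4 h. Fbxo43, an inhibitor of the anaphase-promoting complex known from meiosis, had the largest ratio of all members at 3.77. It was at 2.03, 1.81 and 1.29 CPM at 0 h, 5.50, 7.49 and 6.37 CPM at 4 h, 4.79 to 6.23 CPM at 8 h, then 0.452 to 0.946 CPM at 24 h, so that the 4 h libraries lay above all of 0, 2 and 24 h and overlapped with 8 h. Kitl, the ligand of the KIT receptor, went from 2.62 to 3.22 CPM at 0 h to 5.26 to 5.66 CPM at 4 h and 0.774 to 1.66 CPM at 24 h. Cyp19a1, the aromatase that makes estrogens, went from 4.17 to 5.35 CPM to 8.17 to 8.89 CPM and ended at 0.832 to 1.21 CPM.

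At higher levels, Skp2, the substrate receptor of a ubiquitin ligase that acts on cell cycle inhibitors, went from 169, 173 and 172 CPM at 0 h to 250, 263 and 262 CPM at 4 h. Its 2 h mean already stood at 93.4% of the 4 h mean. It returned to 173, 174 and 144 CPM at 24 h. Skp2 kept the rule in 11 of the 15 cases with a single library left out. It lost the rule without replicate 1 of 0 h, replicate 2 or 3 of 4 h, or replicate 3 of 24 h. Atp6v1e1, a subunit of the proton pump that acidifies lysosomes, had a mean of 87.7 CPM at 0 h, then 145 to 148 CPM at 4 h and 141 to 147 CPM at 8 h, a plateau with no gap between those times. Apcdd1, a membrane inhibitor of WNT signalling, went from 100 to 116 CPM at 0 h to 161 to 183 CPM at 4 h, then 37.6 to 42.9 CPM at 24 h. Cand2, at 194, 256 and 220 CPM at 4 h, shares 53 exonic bases with Rpl32 on the other strand.

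The 2 h and 8 h levels of genes with a 4 h peak, both of which the rule placed below 4 h, were compared as well, and because the rule bounds both, nothing is read from the count. In edgeR, 5 of the 86 were higher and 0 lower, against 17.3% and 21.4% of all genes tested. At an unadjusted p under 0.05, 10 were higher and 1 lower, and DESeq2 called 8 higher and 0 lower. The 5 were Scn2a, a sodium channel (log2 fold change 0.87, SE 0.16), Fbxo43 (0.79), Kcnj8 (0.67), Shld1 (0.54) and Atp6v1e1 (0.51), and none was a copy of a ribosomal protein gene, of which 1 passed at an unadjusted p under 0.05 and 1 in DESeq2. The count rests on few libraries, with 2 higher without the third 8 h library, 3 without the second 8 h library or without the second or the third 2 h library, and 12 without the third 24 h library.

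The 8 h peak held most of the protein-coding genes. Several encode surface and signalling proteins of lymphocytes, which are named here after their values were seen and form no tested group. Ctla4, the inhibitory receptor that competes with CD28 for B7 ligands, climbed at each time, from 21.9, 19.6 and 19.4 CPM at 0 h through 32.7, 34.3 and 35.9 CPM at 2 h and 39.7, 46.1 and 51.7 CPM at 4 h to 66.7, 69.5 and 79.1 CPM at 8 h. At 24 h it was at 27.2, 31.3 and 19.7 CPM, so that the third library was back in the 0 h range. The 8 h mean was 3.53 times that of 0 h and 2.75 times that of 24 h.

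Il7r, the receptor chain for the T cell survival cytokine IL-7, was at 17.2, 15.6 and 17.0 CPM at 0 h and at 36.9, 39.1 and 38.5 CPM at 8 h. Its 24 h libraries, at 10.3, 10.8 and 12.7 CPM, were lower than those of every other time. Itga4, the alpha chain of the integrin VLA-4, went from 58.6 to 60.6 CPM at 0 h to 117 to 121 CPM at 8 h, then 55.3 to 59.2 CPM. These 3 genes were the only members in the lists of inhibitory receptors (1 of 4 at the level), cytokine signalling (1 of 22) and adhesion receptors (1 of 15), in which most genes, 3 of 4, 16 of 22 and 12 of 15, had their highest mean at 24 h. Of 31 genes of T cell receptor signalling at the level, 0 were members. Among all genes at the level, 2.93% were members and 44.9% had their highest mean at 24 h. Nothing is read from the member counts of these short lists.

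Dpp4, the surface peptidase CD26, was at 282 to 302 CPM at 0 h, 546 to 553 CPM at 8 h, then 310 to 345 CPM at 24 h. Slamf6, a lymphocyte adhesion receptor, showed no rise at 2 h, with 252 to 265 CPM at 0 h and 258 to 267 CPM at 2 h, before 361 to 382 CPM at 4 h and 496 to 508 CPM at 8 h. Syk, a kinase of antigen receptor signalling, was low at 2.47 to 3.11 CPM at 0 h and 5.48 to 6.26 CPM at 8 h. Pou2af1, a coactivator known from B cells, went from 96.6 to 107 CPM to 175 to 198 CPM and ended at 82.8 to 105 CPM. Ighm, the only B cell marker above 1 CPM, lay just outside the rule with means of 74.7, 143 and 95.4 CPM at 0, 8 and 24 h. Cd7, which stood close to the limit, lost the rule without the second or the third 8 h library or the third 24 h library.

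Lamp2, a membrane protein of lysosomes, was the most abundant of the protein-coding genes with an 8 h peak outside the ribosome. It dipped first, from 1354, 1414 and 1403 CPM at 0 h to 1090, 1086 and 1147 CPM at 2 h, reached 2191, 2270 and 2335 CPM at 8 h and ended at 472, 465 and 346 CPM at 24 h. Npc2, which carries cholesterol out of lysosomes, went from 274 to 280 CPM to 434 to 464 CPM and back to 244 to 331 CPM. Of 39 autophagy and lysosome genes at the level, Lamp2 and Ulk2 were members (5.13%, against 2.93% of all genes at the level).

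Enzymes that break down fatty acids were found among the 8 h peaks. On a list of fatty acid oxidation and ketone body enzymes, drawn up after values had been seen, 10 of 54 genes at the level were members (18.5%, against 2.93% of all genes at the level), all with a peak at 8 h, and 30 of the 54 had their highest mean at 8 h (55.6%, against 13.2% of all). Acadl, the long-chain acyl-CoA dehydrogenase, climbed from 67.9 to 75.5 CPM at 0 h through 106 to 112 CPM at 4 h to 127 to 130 CPM at 8 h, and was at 72.5 to 85.2 CPM at 24 h. Members also included Acad12, Acadsb, Acnat1, Acot5, Auh, Decr1, Hacl1 and Mut. Hacl1 lost the rule without the third 24 h library and Acot5 without the second 0 h or the first 8 h library. The other members of the list kept it whichever library was left out. Since the list was drawn up with values known, nothing is read from its shares of members and of 8 h peaks. At 24 h against 0 h, 5 of the 54 genes were called higher and 32 lower in edgeR, against 30.7% and 28.1% of all genes tested.

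**Figure D4:**
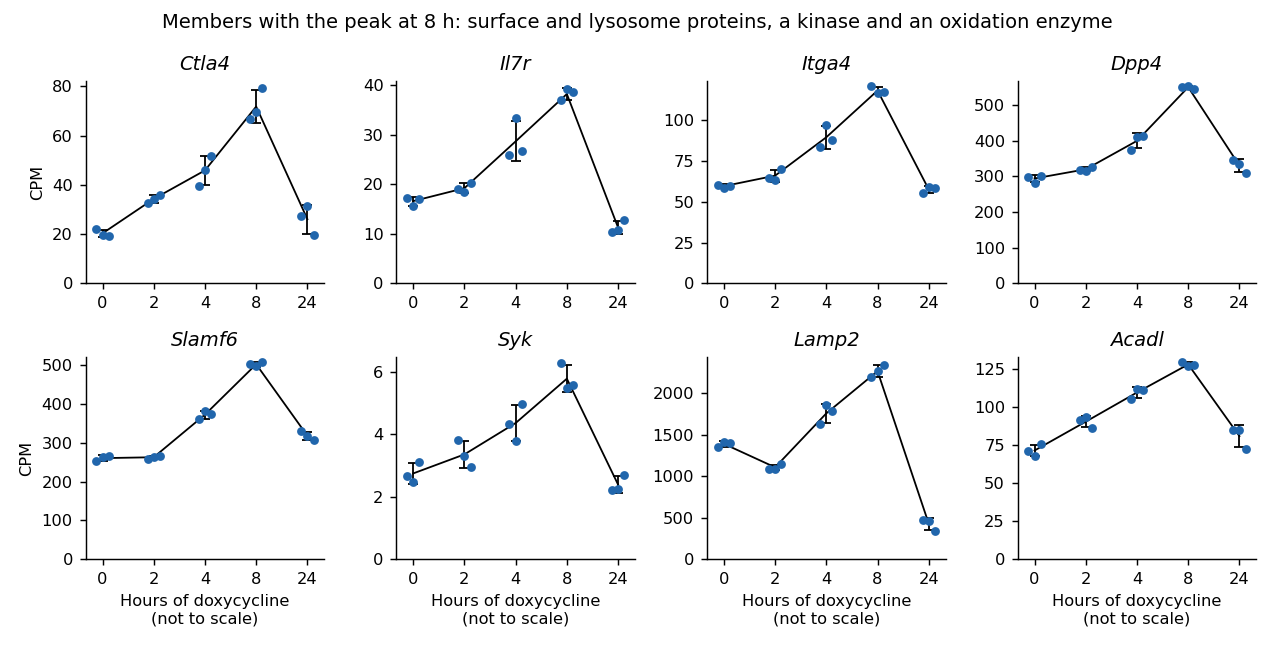
CPM of 8 members with the peak at 8 h against hours of doxycycline, with blue points for the 3 libraries of each time and a black line with bars for the mean and SD. The 8 h points lie above all others in each panel, Ctla4 climbs from the first interval, Slamf6 is flat up to 2 h, and Il7r and Lamp2 end below their 0 h level.

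Cilium, tubulin and G protein genes appeared in smaller numbers, on lists also drawn up after values had been seen. Among all genes at the level 2.93% were members, and nothing is read from the member counts of these short lists. Of 28 intraflagellar transport genes at the level, 4 were members, namely Ttc8, Ift88, Wdr19 and Hspb11, and 14 had their highest mean at 8 h. Ttc8, of the BBSome complex that sorts cilium proteins, went from 5.24 to 5.84 CPM at 0 h to 16.9 to 18.4 CPM at 8 h and kept 9.71 to 11.1 CPM at 24 h. Tubb2a, a beta tubulin, went from 394 to 414 CPM to 753 to 825 CPM and ended at 264 to 349 CPM, and Tubb3 was the other member among 12 tubulins. Gnai3, an inhibitory G protein subunit, went from 461 to 495 CPM to 808 to 855 CPM and back to 361 to 464 CPM, and Gnb4 and Gna14 were the other members among 13 G protein subunits. Of 25 peroxisome genes, Pex7 and Pxmp2 were members (8%). Pex7 lost the rule without the first 0 h or the third 8 h library, and Pxmp2 without the second 0 h or the second 8 h library.

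The largest ratios at 8 h were found in genes of low level. Adgrb3, an adhesion G protein-coupled receptor known from neurons, was at 3.76 to 4.58 CPM at 0 h, 14.7 to 16.5 CPM at 8 h, then 2.86 to 5.75 CPM at 24 h, a ratio of 3.49. Tifa, an adaptor of NF-kB signalling, went from 2.92 to 3.17 CPM to 8.81 to 10.5 CPM and ended at 1.39 to 1.93 CPM. Tnip3, which binds the NF-kB regulator A20, went from 5.35 to 7.34 CPM to 14.8 to 17.5 CPM and ended at 1.82 to 3.52 CPM. Stra8, the retinoic acid target of meiotic entry, went from 3.55 to 3.91 CPM to 8.85 to 11.9 CPM, and Adm, the precursor of the peptide adrenomedullin, from 2.44 to 2.62 CPM to 6.53 to 7.24 CPM. At a higher level, Ptgr1, a prostaglandin reductase, was at 146 to 161 CPM at 0 and 2 h, at 448 to 502 CPM at 8 h and at 155 to 230 CPM at 24 h.

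From 2 to 4 h, edgeR called 79 of the 185 genes with an 8 h peak higher and 1 lower, against 7.72% and 13% of all genes tested. A higher level at 4 h than at 2 h lies on the climb to 8 h for which the rule chose these genes, so nothing is read from this count. Among the 139 other protein-coding genes 68 were higher, and among the 16 copies of ribosomal protein genes 1 was. Adgrb3 was higher by a log2 fold change of 1.13 (SE 0.19), and Adhfe1, which oxidizes hydroxybutyrate, was the gene called lower, at -0.61 (SE 0.16). The count was 48 without the third 2 h library, 52 and 46 without the second and the third 4 h library and 123 without the third 24 h library.

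The 28 non-coding members that are no pseudogenes included Gm26619 with a peak of 362 CPM. Gm26619 shares 541 exonic bases on the other strand with Gm10260, the copy of Rps18 with a peak of 309 CPM. Where they overlap, the counts of these 2 members cannot be told apart unless strand was used in counting. The lincRNA 4930425O10Rik had the largest ratio among the 28 at 2.25, with 5.39 to 5.90 CPM at 0 h, 16.0 to 18.6 CPM at 8 h, then 6.69 to 8.52 CPM at 24 h. Bambi-ps1, a processed pseudogene at 88.6% identity to Bambi, went from 19.1 to 21.8 CPM to 47.8 to 55.1 CPM at 8 h. Among all members, 62 share exonic bases with another gene that reached 1 CPM.

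Compared per length, in the deposited TPM, the copies stood high for their CPM because they are short. The median peak was 163 TPM in the copies, 945 TPM in the 5 ribosomal protein genes and 19.7 TPM in the other protein-coding genes. Rps27 had a peak of 3369 TPM, above Rps24 at 2617 TPM, although Rps24 had more counts. Among the metabolic genes of the 2 h peak, Aldoa reached 2315 TPM, Gpi1 565 TPM, Scd2 421 TPM and Hmgcs1 97.8 TPM.

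The return at 24 h was not always to the starting level. The rule held both the 0 h and the 24 h mean to the peak over 1.5 at most and set no order between them, so genes that went on rising to 24 h could not be members. The comparison of 24 h with 0 h called 21 of the 297 higher and 130 lower in edgeR at adjusted p under 0.01, beside 30.7% and 28.1% of all 14485 genes tested, shares from which the rule alone can move the members. On unscaled library totals in place of TMM the counts were 47 higher and 75 lower. Called genes made up 50.8% of the members and 58.8% of all genes tested. By peak time, 1 gene was higher and 15 lower of the 26 with a peak at 2 h, 0 and 50 of the 86 at 4 h, and 20 and 65 of the 185 at 8 h. Among those with a peak at 4 h, 0 were higher at an unadjusted p under 0.05 or in DESeq2 either. The median log2 fold change was -0.44, -0.76 and -0.23 in the 3 groups and 0.07 over all genes tested.

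Lamp2 was lower at 24 h by a log2 fold change of -1.97 (SE 0.11, adjusted p = 2.6e-10 from edgeR) and Il7r by -0.83 (SE 0.10, adjusted p = 2.1e-06). Cyp19a1 fell by 2.57 (SE 0.18, adjusted p = 5.1e-09) on the same scale. The strongest falls among genes with an 8 h peak were in Egfem1 (-3.56) and Meikin (-3.27), a meiotic kinetochore factor, both named after their values were seen. Cd7 (0.94) and Ttc8 (0.65) were among the 20 higher. Ctla4 (0.09, adjusted p = 0.61), Slamf6 (0.01, adjusted p = 0.85) and Hmgcs1 (0.15, adjusted p = 0.092) were not called. Of the 6 sterol members, Lss, Scd2 and Cyp51 were lower and the other 3 were not called, and Scd2 was not called on library totals. Cyp51 was not called in 5 of 23 alternatives, namely library totals, upper-quartile factors, a fit of the 2 times only, and without the second or the third 0 h library.

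**Figure D5:**
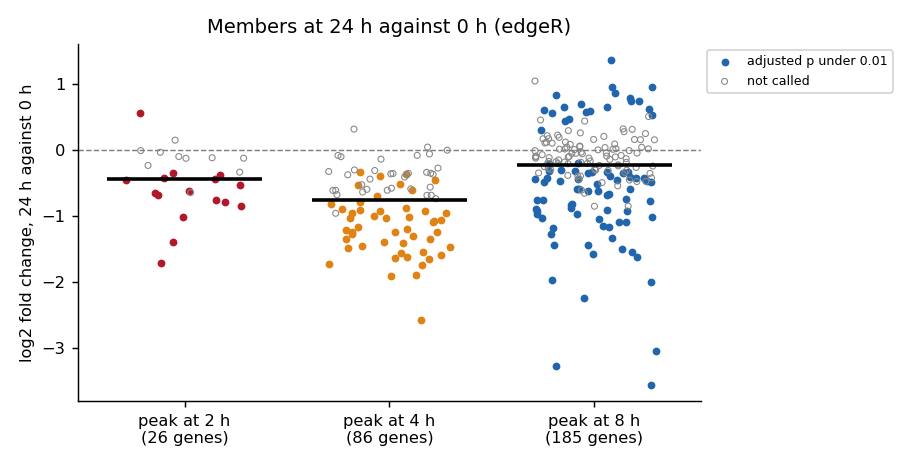
log2 fold change of 24 h against 0 h from edgeR for each member, grouped by the time of its peak, with filled points for adjusted p under 0.01, open grey points for genes not called and a black line for the median of each group. Nearly all genes with a peak at 4 h lie below 0, with a median of -0.76, whereas those with a peak at 8 h lie on both sides.

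Promoters of the 179 other protein-coding members were searched for short motifs in RefSeq windows from 250 bases before to 50 bases after the start, and 145 of these genes had 195 windows. The E-box CACGTG, the sequence that MYC and its partner MAX are known to bind, was present in 7 of the 195 windows (3.59%), against 10.7% of the 9432 windows of genes at the level and 7.15% of all windows. The CCAAT box was present in 41.5% of the members' windows and 38.5% of those of genes at the level. In the same order, the TATA motif was present in 11.3% and 6.38%, the AP-1 motif in 6.15% and 3.12% and the ETS motif in 6.15% and 9.83%. The CRE motif was present in 2.05% and 3.36% and the forkhead motif in 2.05% and 2.47%. The CARE motif was present in 0.513% and 0.520% and the CArG box in 0.513% and 1.10%. These shares were not tested.

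The smallest ratios inside belonged to Gm10120, Gm26850 and Alox5ap, at 1.501 to 1.502, and the largest outside to A930002I21Rik, Pfkl and Ighm, at 1.498 to 1.499. At the level limit, Gm35281, Gm35082 and A430028G04Rik had peak means of 5.01, 5.08 and 5.11 CPM, and Gm6560, Gm28380 and Gm6525 missed it with 4.98, 4.97 and 4.93 CPM. All 297 genes passed the low-count filter of the test, which a gene can pass through the time at which it is high.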

How the data were processed

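RNA-seq of polyA RNA was analysed in 15 libraries, grouped by the time in their labels. For each library the authors deposited 3 measures of each of 53380 features (raw counts, FPKM and TPM), and 53379 of these are mouse genes. Tools named in the submitters' processing notes are cutadapt 1.16, STAR 2.5.4b and featureCounts, with the build mm10. The annotation release, the handling of reads that map to several places and the strand setting were not given in the sources used here. Deposited counts entered the rule and the tests, deposited TPM served to compare genes per length and as an alternative, and FPKM was not used.

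Members and lists were chosen with earlier results of these data known, and 6 of the 52 gene lists, the ribosomal protein list among them, were drawn up after values had been seen. CPM were counts over library totals. Tests used edgeR 4.0.16 in R 4.3.3 (filterByExpr, 14485 genes, TMM, glmQLFit over all 15 libraries, no replicate block), with Benjamini-Hochberg adjustment over all genes and a threshold of 0.01. The 2, 4 and 8 h levels were not tested against 0 h or 24 h, because the rule used those contrasts. Copies were found with BLASTN 2.17.0 against protein-coding transcripts of GENCODE M21, to which 53274 of the mouse gene IDs matched. The fit was tested on simulated data.

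Total counts per library were 25852711 to 27102318 (median 26672358), and an observed 0 allows up to 3 counts or 0.111 to 0.116 CPM, which covers counting error only. The genes named are, per peak time, the 10 protein-coding members of largest ratio, the 5 members of highest peak mean, the 5 non-coding members of largest ratio, up to 4 members per list and the 3 nearest on each side of both limits. Other names were chosen after their values were seen, and results for some genes are not reported here. Alternatives were other scalings, filters, limits and tools, a block for the replicate number, and each library left out in turn.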

Additional observations from a re-analysis of the deposited data

How the results depend on the processing

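The number of members, 297, stayed within 1.5 times on TMM-scaled totals (348, of which 255 were shared), RLE size factors (317, 234 shared), deposited TPM (337, 173 shared), medians (286, 255 shared) and a floor of 10 CPM (217). In TPM, 31 of the 124 lost were under 5 TPM and 93 had a ratio under 1.5. Rps24 was lost on each of the first 4 of these settings, Rps27 with TMM and RLE, and Gpi1, Lamp2, Pdk1 and Ulk2 with RLE. In TPM, Adgrb3, Cyp19a1, Fbxo43, Ift88, Kitl, Scn2a, Tnip3 and Ttc8 were lost. Of the 5 ribosomal protein genes, 2, 1, 1 and 2 were kept on the 4 settings. A floor of 1 CPM gave 576 members (50, 139 and 387 with a peak at 2, 4 and 8 h), a ratio of 2 gave 33 (2, 1 and 30) and a ratio of 1.3 gave 659 (72, 191 and 396). Leaving out 1 library gave 266 to 322 members, with 24 to 29, 28 to 123 and 163 to 245 at the 3 peak times.

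For 24 h against 0 h, 47 members were higher and 75 lower on library totals, and 12 were higher when only those times were fitted. Leaving out 1 library gave 16 to 29 higher and 107 to 144 lower. For 8 h against 4 h it gave 0 to 1 higher and 9 to 18 lower. For 4 h against 2 h, 119 were higher with only those times fitted and 46 to 123 with 1 library left out. The count of lower genes, 1, was 0 with upper-quartile factors or no low-count filter and 3 with at least 10 counts in every library, only those times, DESeq2 or an adjusted p under 0.05, and 0 to 3 with 1 library left out. For 8 h against 2 h, 9 were higher with no low-count filter, 14 with only those times and 8 with DESeq2 or an adjusted p under 0.05, 1 was lower with only those times or the wider threshold, and leaving out 1 library gave 2 to 12 higher and 0 to 1 lower. Apart from the left-out libraries and the limits themselves, the cause was not tested. No called member that the text names by its rule changed sign at 24 h under the 23 alternatives, but library totals ended the calls of Cyp51, Gm45795, Gpi1, Itga4, Pdk1, Phldb2, Rps27, Scd2 and Ulk2. Of these, Cyp51, Itga4, Pdk1, Phldb2 and Rps27 lost the call under other alternatives too, in 5, 2, 3, 5 and 8 of the 23 in all. The replicate numbers did not pair the libraries (median correlation of same-numbered deviations 0.025, from -0.31 to 0.21). With the number as a block, the test of 24 h against 0 h called 22 members higher and 123 lower. The block gave 1 and 10 for 8 h against 4 h, 71 and 1 for 4 h against 2 h, and 4 and 0 for 8 h against 2 h.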
